A study of Mus musculus with 6 samples.

Results

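The Rab genes encode small GTPases that direct membrane traffic inside cells, and the levels of 50 of their mRNAs were read in the cortex of mice without the RNA-binding protein HuD. Members were all genes of the deposited 6-library table named Rab, then a number and at most 1 further letter. Of the 13299 genes in the table, 51 had such names, and *Rab3b* was left out because it lies within 5 Mb of the targeted *Elavl4* gene on chromosome 4. The tested tissue was flash-frozen neocortex of adult male mice of about 3 to 4 months, sequenced from 3 HuD KO mice (*Elavl4*-/-) and 3 wild type littermates, called controls. In the HuD KO allele exon 2 of *Elavl4* is replaced by a PGK-Neo cassette that shifts the reading frame, in every cell of the animal and throughout life, and both genotypes share a C57BL/6 background after at least 10 generations of backcrossing. HuD KO replicate 2 had been excluded by the study as an outlier, so each comparison was made over 5 libraries (HuD KO 1 and 3 against control 1, 2 and 3). Values over all 6 are set beside the counts and part of the members. A log2 fold change given without a set of libraries is over 5, and means given for HuD KO alone leave out replicate 2. Values are FPKM, fragments scaled to transcript length and to library size, and differences are on the log2(FPKM + 1) scale, which understates those of weakly expressed genes.

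Rab proteins switch between a GDP-bound form, kept soluble by GDP dissociation inhibitor, and a GTP-bound form that sits on a membrane and recruits effectors for budding, transport, tethering and fusion. Exchange factors turn them on and GTPase-activating proteins turn them off, and each organelle carries its own set. In neurons they are known above all for the synaptic vesicle cycle, for axonal and dendritic transport and for the turnover of receptors through endosomes.

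Rab proteins share a GTPase domain, and their ends differ from one another but carry the cysteines to which the lipid membrane anchor is joined. The last 10 codons of each gene were read from the GENCODE M21 transcript with the longest coding sequence (GRCm38, the build of the files, mm10). Every one of the 50 members had at least 1 cysteine codon (TGT or TGC) among its last 4 codons, and 38 of them (76.0%) had 2 or more, against 97 of 13109 genes in the tables (0.74%). With C for a cysteine codon and x for any other, the last 4 codons read xCxC in 18 members, xxCC in 14, Cxxx in 12, CCxx in 5 and xCCx in 1. The Cxxx members include *Rab11a*, *Rab11b*, *Rab21* and *Rab30*, where the codon just before the last 4 was also cysteine, so Cxxx is not always a single cysteine. The 7 endings below, each the sense strand from 5′ to 3′ with cysteine codons in capitals, show some of these forms in members whose levels are described further on.
Rab3a, chr8:70758056-70758085, plus strand: caggcgccacctcatcaggatTGTgccTGC
Rab6b, chr9:103181214-103181243, plus strand: cccccggccagcgagggcggcTGCtccTGT
Rab33b, chr3:51493764-51493793, plus strand: gagaccaagcctgcggtgactTGCtggTGC
Rab7, chr6:88000438-88000467, minus strand: gccaaggcctccgcagaaagcTGCagtTGT
Rab2a, chr4:8606471-8606500, plus strand: ggcggacagcaggcagggggaggcTGCTGT
Rab40b, chr11:121357040-121357069, minus strand: aacTGTgccaggaacagcTGCaaaatttct
Rab28, chr5:41625773-41625802, minus strand: cctcctcggagctccatgTGTgcagtgcag
*Rab3a*, *Rab6b*, *Rab33b* and *Rab7* end in cysteine, one residue, cysteine, and *Rab2a* in adjacent cysteines. *Rab40b* and *Rab28* have a single cysteine codon among the last 4, in the first of those places.

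HuD binds AU-rich elements in 3′-UTRs, and the study lists 738 mRNAs as HuD targets. Its sources were RNA immunoprecipitation and GST-HuD pulldown in mouse forebrain, and RNA immunoprecipitation in mouse striatum. On this list are 9 members (*Rab2a*, *Rab2b*, *Rab3a*, *Rab3c*, *Rab5a*, *Rab6a*, *Rab7*, *Rab11a* and *Rab14*, with *Rab6a* under its older symbol). The nonamer TTATTTATT was searched on the transcript strand of the annotated 3′-UTRs, together with the pentamer ATTTA, which the nonamer contains. For each gene only the transcript with the longest coding sequence was searched. Its 3′-UTR was short in some members (38 bases in *Rab18*, 65 in *Rab42* and 128 in *Rab33a*), so matches in other transcripts would be missed. Only *Rab2b*, *Rab3a* and *Rab4b* held the nonamer (6.0% of members, against 7.5% of all 13109 genes). The 25 bases around it are shown, read 5′ to 3′ on the gene's strand with the nonamer in capitals, because these are the clearest such matches among the Rab mRNAs.
Rab3a, chr8:70758151-70758175, plus strand: gtagctatTTATTTATTtattgagg
Rab2b, chr14:52263028-52263052, minus strand: gctcctttTTATTTATTatgtgtgt
Rab4b, chr7:27168474-27168498, minus strand: caagtctgTTATTTATTacctggag
In *Rab3a* a further copy of the nonamer overlaps the one shown. The pentamer was found in 43 members (86.0%, against 66.9% of all genes), at a median of 1.56 per kilobase against 1.25. Among the 9 members on the target list every one held it, at a median of 2.42 per kilobase, against 34 of the 41 other members at a median of 1.32. Members have longer 3′-UTRs than other genes (median 1963 against 1022 bases), and within the first 500 bases of 3′-UTR the pentamer was in 52.5% of 40 members against 47.6% of all genes. A match of letters is a description and not a binding site.

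*Elavl4* had 1.70, 1.07 and 1.52 FPKM in HuD KO replicates 1, 2 and 3, against 34.2, 30.4 and 28.3 FPKM in control replicates 1, 2 and 3. All 3 libraries of the knockout lay far below every control, as their labels say. HuD KO replicate 2 and control replicate 3 each stood apart. The summed level of 4 hypothalamic markers (*Pmch*, *Hcrt*, *Oxt* and *Avp*) was 0.533 to 1.95 FPKM in the HuD KOs and 0.708 to 1.46 FPKM in controls 1 and 2, but 257 FPKM in control 3, where *Hcrt* reached 21.5 FPKM against 0 in HuD KO 3 and control 1. Choroid plexus markers summed to 161, 5.56 and 88.2 FPKM in the HuD KOs, against 2.44, 2.31 and 297 FPKM in the controls, with *Kcne2* at 0 in HuD KO 2 and control 2. The summed level of 5 excitatory neuron markers was 571 to 636 FPKM in the HuD KOs, against 430 to 505 FPKM in the controls, and that of 8 meningeal fibroblast markers was 14.8 to 19.1 FPKM against 24.7 to 50.8 FPKM. For 5 mural cell markers it was 51.3 to 64.7 FPKM in the HuD KOs, against 68.7 to 78.2 FPKM in the controls. The genotypes did not overlap in these 3 sums, and no marker of these lists was at 0. The part of these markers in the Rab results was not tested. In bulk tissue fewer cells of a type and less RNA per cell cannot be told apart.

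The Rab mRNAs were abundant. The median member averaged 15.5 FPKM over all 6 libraries, against 5.78 FPKM for all genes. Only 3 members averaged at least 100 FPKM (*Rab6b*, *Rab3a* and *Rab2a*), and these held 33.5% of the summed level. A further 27 averaged 10 to 100 FPKM, 18 averaged 1 to 10 FPKM, and *Rab32* and *Rab39* stayed under 1 FPKM at 0.607 and 0.514 FPKM. The highest library was on median 1.47 times the lowest, with 28 members under 1.5 times and 11 over 2 times. The genes are scattered over 18 chromosomes, with 4 on the X chromosome, and none of their symbols is listed more than once. *Rab15*, *Rab24*, *Rab2b*, *Rab3a* and *Rab6a* overlap a measured protein-coding gene on the opposite strand (*Fntb*, *Prelid1*, *Tox4*, *Mpv17l2* and *Mrpl48*) and *Rab26* overlaps *Traf7* on its own strand, so reads there may be shared if the counting did not use strand or could not separate the genes.

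**Figure D1:**
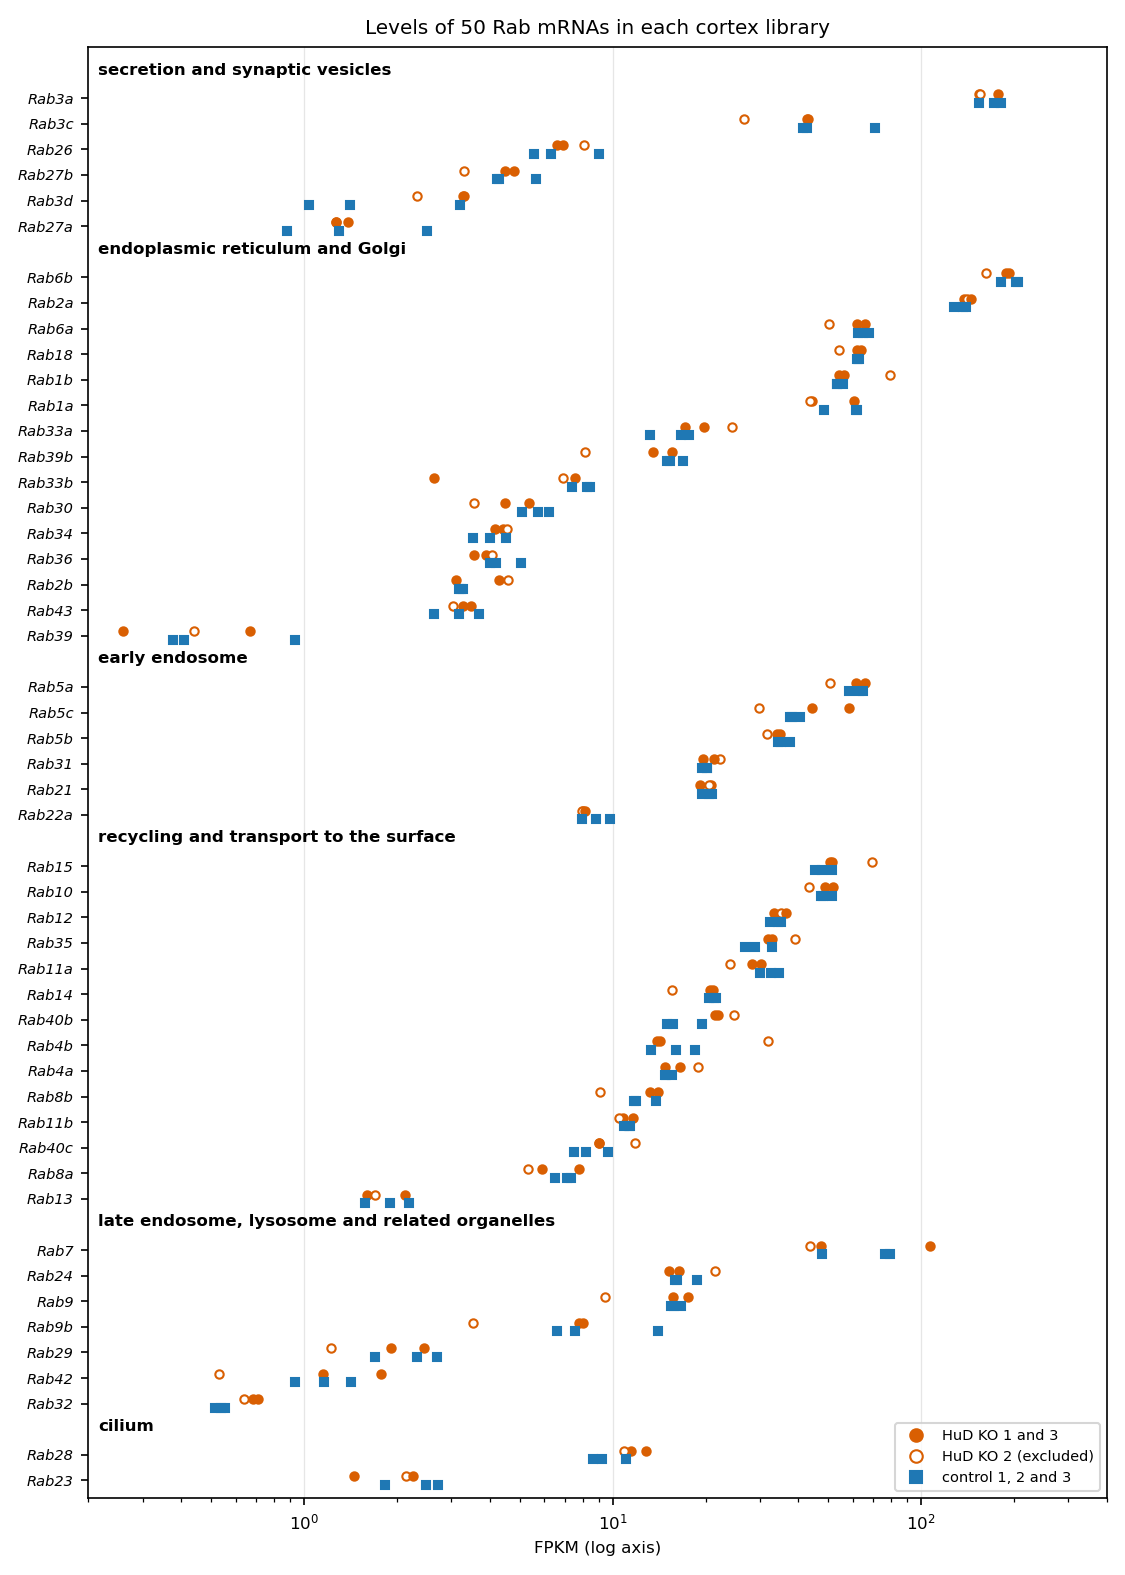
FPKM of the 50 Rab mRNAs (log axis), grouped by the compartment each protein is best known for and sorted by mean, with 1 point per library: HuD KO above, control below, the excluded HuD KO replicate 2 as an open circle. *Rab6b*, *Rab3a* and *Rab2a* lie above 100 FPKM in every library, and most members differ more between genes than between libraries.

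No Rab mRNA passed the test between HuD KO and control after adjustment over all genes. Over 5 libraries 0 of 50 members passed an adjusted p of 0.05 (limma; 6 of 13121 genes did, 0.0457%), and over 6 libraries 0 of 50 passed (4 of 13114 genes, 0.0305%). At an unadjusted p under 0.05, 3 members were called over 5 libraries, all higher in HuD KO, beside 3.43% of all genes (1.62% higher), and 1 over 6 libraries, beside 3.48% of all genes. By sign, 25 members were higher and 25 lower in HuD KO over 5 libraries (44.5% of all genes were higher). The split was 20 higher and 30 lower over 6 libraries (47.6%). The median log2 fold change of the members was -0.0013 over 5 libraries, against -0.017 for all genes, and -0.053 over 6, against -0.010. The 95% interval of the difference lay within 0.5 of 0 on the log2 scale for 35 members (70.7% of all genes) and within 1 for 47 (93.9%) over 5 libraries, and within 0.5 for 24 over 6 (57.2%). Over 5 libraries the 3 with wider intervals were *Rab33b*, *Rab3d* and *Rab7*. Leaving out 1 library gave 0 calls at an unadjusted p under 0.05 without control 1 or without control 2, 1 without HuD KO 1 or HuD KO 3, and 5 without control 3, and no adjusted call in any of these. Without HuD KO 1 or HuD KO 3 a single HuD KO library remained, so that the spread came from the controls alone and that library was assumed to vary like them.

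**Figure D2:**
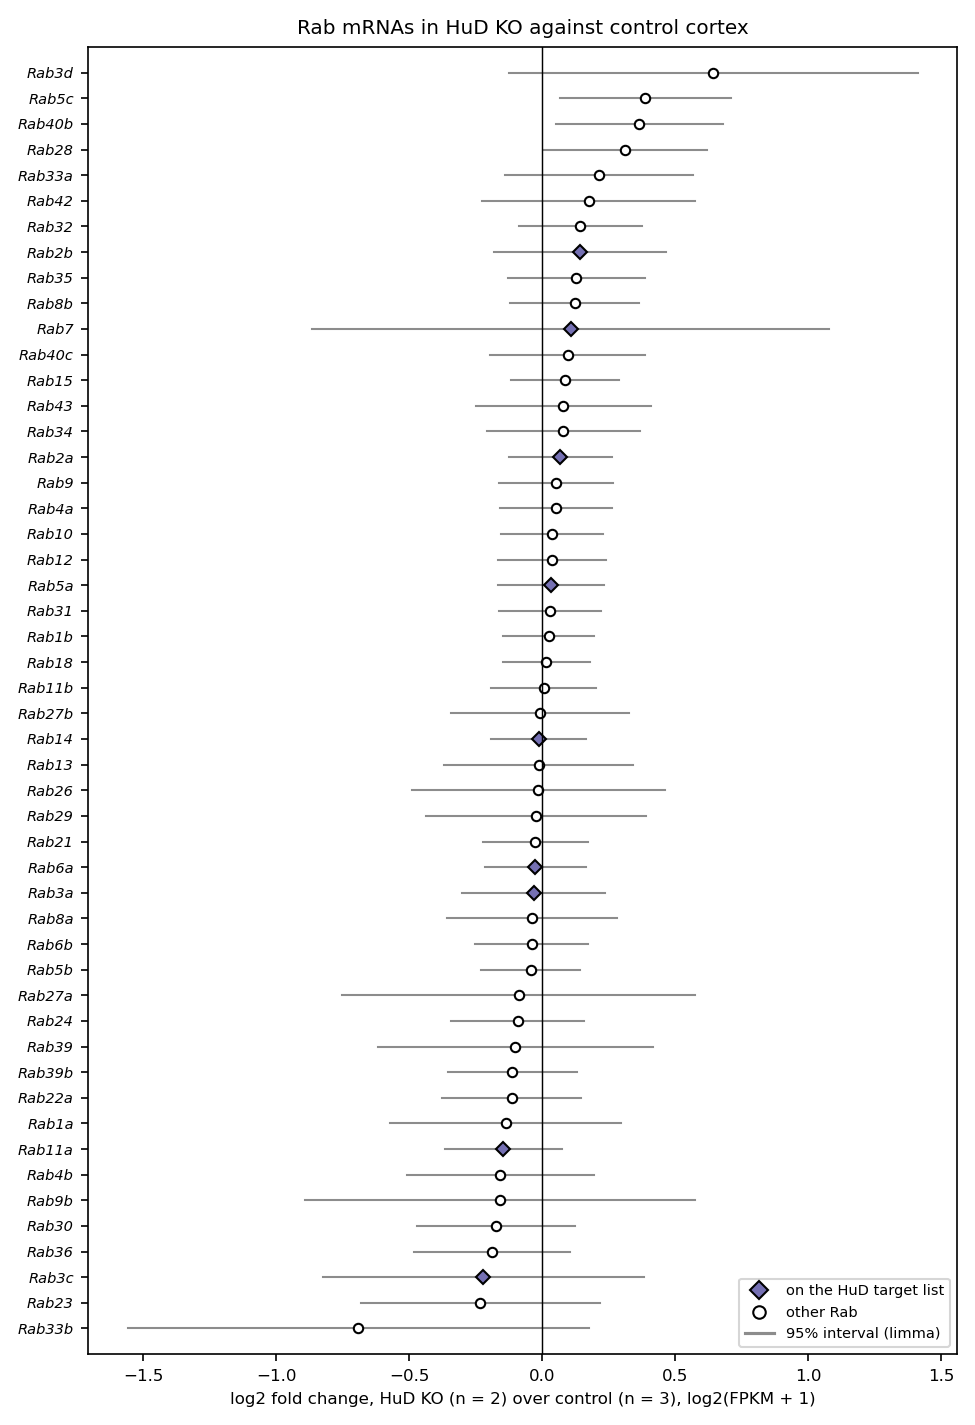
Log2 fold change of each Rab mRNA in HuD KO (replicates 1 and 3) over control (3 libraries), with its 95% interval from limma; diamonds mark the 9 mRNAs on the HuD target list. The intervals of *Rab5c*, *Rab40b* and *Rab28* miss 0 without adjustment, and those of *Rab33b*, *Rab3d* and *Rab7* are the widest.

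The early endosome group held 6 members, of which 3 had a higher and 3 a lower mean in HuD KO over 5 libraries. Over 6 libraries 2 were higher and 4 lower, beside 47.6% of all genes higher (44.5% over 5). RAB5 drives the fusion of early endosomes and is made from 3 genes. *Rab5c* had the smallest p of all members, with 44.3 and 58.5 FPKM in HuD KO replicates 1 and 3, against 37.6, 38.0 and 40.4 FPKM in the controls. Both HuD KO libraries were above every control, but the excluded replicate 2 had 29.9 FPKM, below all of them. The log2 fold change was 0.39 ± 0.13 (SE; 95% interval 0.07 to 0.71; adjusted p = 0.995, limma) over 5 libraries and 0.14 (95% interval -0.39 to 0.67) over 6. It was 0.19 without HuD KO 3 and 0.59 without HuD KO 1. *Rab5a*, a listed HuD target and the most abundant of the 3, had 65.7, 50.5 and 61.4 FPKM in HuD KO replicates 1, 2 and 3, against 58.5, 63.0 and 64.6 FPKM in the controls. These groups overlapped, with a log2 fold change of 0.03 (95% interval -0.16 to 0.23). *Rab5b* averaged 34.5 FPKM in HuD KO and 35.6 FPKM in control. The ratio of *Rab5a* to *Rab5c* was 1.48, 1.69 and 1.05 in HuD KO, against 1.55, 1.66 and 1.60 in control, so that only HuD KO 3 had them near equal. *Rab31*, *Rab21* and *Rab22a*, RAB5 relatives of the endosome, averaged 20.4, 20.0 and 8.09 FPKM in HuD KO and 20.0, 20.3 and 8.88 FPKM in control.

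Recycling endosomes and transport to the cell surface held the next group of 14 members, 9 higher and 5 lower over 5 libraries. Over 6 libraries 7 were higher and 7 lower, beside 47.6% of all genes higher (44.5% over 5). *Rab40b* belongs to a branch of Rabs with a SOCS box that binds an E3 ubiquitin ligase. It had 21.9, 24.7 and 21.4 FPKM in HuD KO replicates 1, 2 and 3, against 15.0, 15.7 and 19.5 FPKM in the controls. All 3 HuD KO libraries lay above all controls. The log2 fold change was 0.36 ± 0.13 (SE; 95% interval 0.05 to 0.68; adjusted p = 0.995, limma) over 5 libraries and 0.42 (95% interval 0.12 to 0.73; adjusted p = 0.871) over 6, the only member called in both at an unadjusted p. Its paralogue *Rab40c* averaged 9.03 FPKM in HuD KO and 8.43 FPKM in control, and the ratio of *Rab40b* to *Rab40c* was 2.09 to 2.43 in HuD KO and 1.55 to 2.39 in control.

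*Rab11a*, the main GTPase of recycling endosomes and a listed HuD target, had 30.2, 24.1 and 28.2 FPKM in HuD KO replicates 1, 2 and 3, against 30.0, 32.6 and 34.5 FPKM in the controls. The HuD KO values were mostly lower, with HuD KO 1 just above control 1, and the log2 fold change was -0.15 (95% interval -0.37 to 0.08) over 5 libraries and -0.23 (95% interval -0.52 to 0.05) over 6. *Rab14*, another listed target that works between the Golgi and endosomes, had 21.1, 15.6 and 20.7 FPKM in HuD KO, against 21.4, 20.5 and 21.6 FPKM in control. Only the excluded replicate stood below the controls. *Rab35*, which acts in fast recycling and the regulation of actin, had 31.8, 39.1 and 32.8 FPKM in HuD KO, against 28.9, 32.9 and 26.8 FPKM in control, with a log2 fold change of 0.13 (95% interval -0.13 to 0.38) and groups that overlapped. *Rab15*, a neuron-enriched member of the endocytic route, was the most abundant of the group, at 50.5, 69.3 and 51.5 FPKM in HuD KO, against 47.6, 51.4 and 45.3 FPKM in control. Again replicate 2 was the one that differed.

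The remaining members of that group, as means of HuD KO 1 and 3 and of the 3 controls, were *Rab10* (50.3 FPKM in HuD KO and 49.0 FPKM in control), *Rab12* (34.9 and 34.0 FPKM), *Rab4a* (15.7 and 15.1 FPKM), *Rab8b* (13.7 and 12.5 FPKM), *Rab11b* (11.2 and 11.2 FPKM), *Rab8a* (6.82 and 6.98 FPKM) and *Rab13* (1.86 and 1.89 FPKM). *Rab10* and *Rab8a* are known for polarized delivery to the plasma membrane, and *Rab4a* for fast recycling. *Rab4b* had 13.9, 31.8 and 14.3 FPKM in HuD KO, against 16.1, 18.5 and 13.3 FPKM in control, and 76.5% of its 100-base windows occur also in a readthrough model, so its reads may be shared with that gene. *Rab4b* in replicate 2 is the largest upward shift of any member in that library.

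The endoplasmic reticulum and Golgi group, the largest with 15 members, had 7 higher and 8 lower in HuD KO over 5 libraries. Over 6 libraries 6 were higher and 9 lower, beside 47.6% of all genes higher (44.5% over 5). *Rab6b*, the brain-enriched RAB6 of retrograde Golgi transport, was the most abundant Rab mRNA, with 189, 162 and 193 FPKM in HuD KO replicates 1, 2 and 3, against 206, 203 and 181 FPKM in the controls. The groups overlapped and the log2 fold change was -0.04 (95% interval -0.25 to 0.17). *Rab6a*, its widespread paralogue and a listed HuD target, had 61.9, 50.1 and 65.6 FPKM in HuD KO, against 62.2, 67.9 and 64.7 FPKM in control. The *Rab6b* to *Rab6a* ratio was one of the steadiest among paralogues, at 2.94 to 3.24 in HuD KO and 2.80 to 3.31 in control.

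*Rab2a*, which acts at the Golgi and on the way to the lysosome, had 137, 140 and 145 FPKM in HuD KO, against 128, 137 and 140 FPKM in control, a log2 fold change of 0.07 (95% interval -0.12 to 0.26). Its relative *Rab2b* was far lower, at 4.28, 4.59 and 3.11 FPKM in HuD KO, against 3.21, 3.28 and 3.17 FPKM in control. HuD KO 1 and 2 were above the controls and HuD KO 3 below them. Both *Rab2* genes are listed HuD targets. *Rab18*, of lipid droplets and the endoplasmic reticulum, had 63.9, 54.2 and 62.0 FPKM in HuD KO, against 62.2, 61.9 and 62.7 FPKM in control.

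*Rab1a* and *Rab1b* serve transport from the endoplasmic reticulum to the Golgi. *Rab1a* had 44.2, 43.7 and 60.5 FPKM in HuD KO, against 61.4, 62.0 and 48.5 FPKM in control, so that 1 control lay among the low values and 1 HuD KO among the high. *Rab1b* had 54.1, 79.3 and 56.0 FPKM in HuD KO, against 53.4, 53.3 and 55.6 FPKM in control, with only replicate 2 outside the narrow range of the others. The log2 fold changes were -0.14 (95% interval -0.57 to 0.30) and 0.02 (95% interval -0.15 to 0.19). Over 6 libraries they were -0.22 and 0.20.

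*Rab33b*, which works with the autophagy machinery at the Golgi, had the lowest log2 fold change, -0.69 ± 0.35 (SE; 95% interval -1.56 to 0.17; adjusted p = 0.995, limma). It had 2.64 FPKM in HuD KO 1, with 6.88 and 7.56 FPKM in HuD KO 2 and 3, against 8.23, 7.39 and 8.45 FPKM in control. Only HuD KO 1 was far below the rest, and without it the value was -0.07, whereas without HuD KO 3 it was -1.31. Over 6 libraries it was -0.53. *Rab33a*, its neuron-enriched paralogue, had 17.2, 24.4 and 19.7 FPKM in HuD KO, against 16.6, 17.7 and 13.2 FPKM in control, a log2 fold change of 0.21 (95% interval -0.14 to 0.57). Control 3 was the lowest, and the value was 0.10 without it and 0.31 without HuD KO 1. Over 6 libraries it was 0.34.

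*Rab30* and *Rab36*, Golgi Rabs, were among the 12 members with the smallest p, without an adjusted call. *Rab30* had 5.37, 3.55 and 4.49 FPKM in HuD KO, against 6.22, 5.10 and 5.71 FPKM in control. *Rab36* had 3.90, 4.06 and 3.56 FPKM in HuD KO, against 4.19, 3.99 and 5.04 FPKM in control, where only the excluded replicate overlapped. Their log2 fold changes were -0.17 (95% interval -0.47 to 0.12) and -0.19 (95% interval -0.48 to 0.10). Over 6 libraries they were -0.30 and -0.16. *Rab39b* averaged 14.5 FPKM in HuD KO and 15.8 FPKM in control, *Rab34* 4.28 and 4.02 FPKM, *Rab43* 3.38 and 3.17 FPKM and *Rab39* 0.462 and 0.573 FPKM. In the excluded HuD KO 2 *Rab39b* was 8.12 FPKM, its lowest value. *Rab39b* is known in humans as a gene of X-linked intellectual disability. *Rab43* shares 90.3% of its 100-base windows with a readthrough model. *Rab34* is the only member on the study's list of alternatively spliced genes, and none is on its list of alternatively polyadenylated ones. The share of all genes on these lists was not counted, so no trait of the Rab genes can be read from this.

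Of the 6 members of secretion and synaptic vesicles, 1 was higher and 5 were lower over 5 libraries. Over 6 libraries 2 were higher and 4 lower, beside 47.6% of all genes higher (44.5% over 5). *Rab3a*, the main synaptic vesicle Rab, with the AU-rich matches shown above and a place on the HuD target list, had 154, 155 and 177 FPKM in HuD KO, against 172, 182 and 154 FPKM in control. The groups overlapped almost fully, with a log2 fold change of -0.03 and an interval of -0.30 to 0.24. *Rab3c*, a related vesicle Rab and a listed target, had 42.7, 26.7 and 43.0 FPKM in HuD KO, against 42.8, 41.4 and 70.9 FPKM in control. HuD KO 1 and 3 matched controls 1 and 2, and control 3, the library with 257 FPKM of hypothalamic markers, was high. Without control 3 the log2 fold change was 0.03, against -0.22 with it. Over 6 libraries the log2 fold change was -0.44.

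*Rab3d*, the form of RAB3 best known from secretory cells outside the brain, had the highest log2 fold change, 0.64 ± 0.31 (SE; 95% interval -0.12 to 1.41; adjusted p = 0.995, limma). It had 3.27, 2.33 and 3.30 FPKM in HuD KO, against 1.41, 1.04 and 3.19 FPKM in control. Controls 1 and 2 were lower than every HuD KO and control 3 was close to HuD KO 1 and 3, and without it the value was 0.95 (adjusted p = 0.174, limma). Over 6 libraries the value was 0.52. Choroid plexus markers summed to 161 and 88.2 FPKM in HuD KO 1 and 3 and to 297 FPKM in control 3. They summed to 2.44 and 2.31 FPKM in controls 1 and 2, and to 5.56 FPKM in HuD KO 2. Genotype and choroid plexus content therefore cannot be told apart in the value without control 3. The part of these markers in *Rab3d* was not tested. *Rab26*, *Rab27b* and *Rab27a*, which act on secretory granules and vesicles, averaged 6.75, 4.65 and 1.33 FPKM in HuD KO and 6.96, 4.71 and 1.56 FPKM in control. *Rab27a* reached 2.51 FPKM in control 3, against 1.27 to 1.39 FPKM in the HuD KOs and 0.880 and 1.30 FPKM in the other controls.

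**Figure D3:**
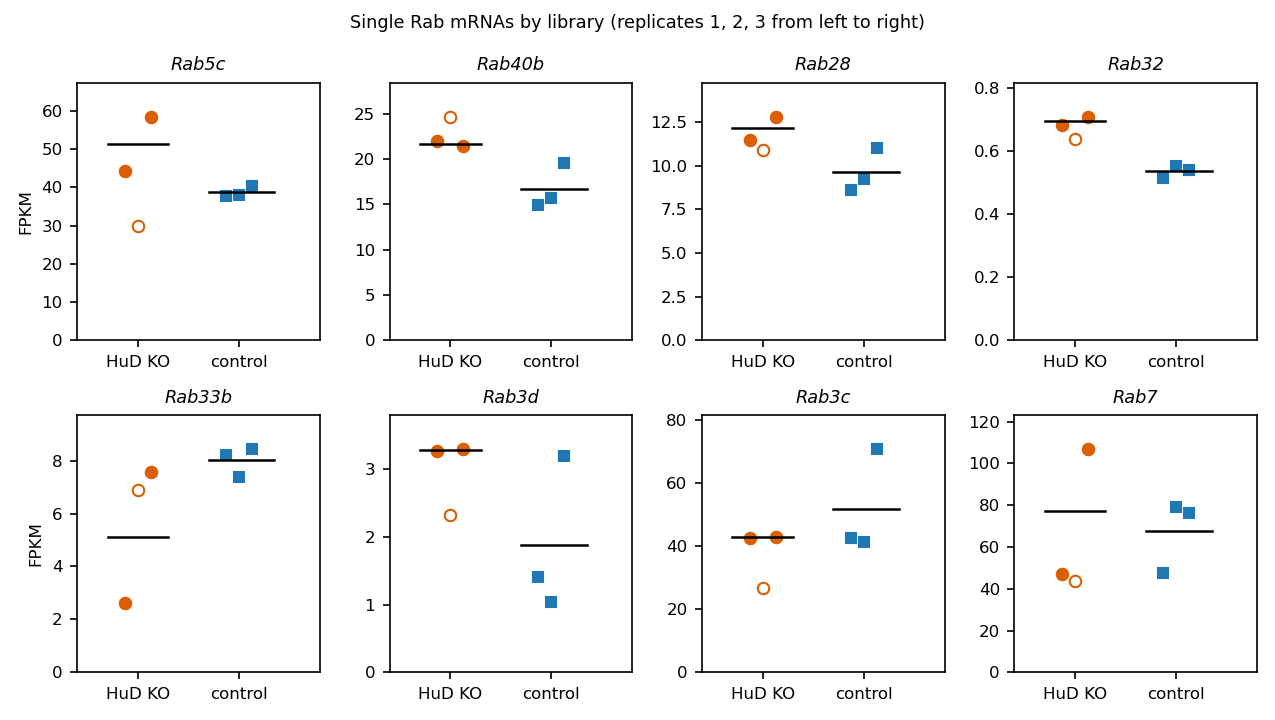
FPKM by library for 8 Rab mRNAs, HuD KO left and control right, replicates 1, 2 and 3 from left to right, with the excluded HuD KO 2 as an open circle; bars are the means of HuD KO 1 and 3 and of the 3 controls. All HuD KO points lie above all control points for *Rab40b* and *Rab32*, and without the open circle also for *Rab5c*, *Rab28* and *Rab3d*; HuD KO 1 is low for *Rab33b*, and control 3 is high for *Rab3c* and *Rab3d*.

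Late endosomes, lysosomes and related organelles took 7 members, 4 higher and 3 lower over 5 libraries. Over 6 libraries 2 were higher and 5 lower, beside 47.6% of all genes higher (44.5% over 5). *Rab7*, which brings late endosomes to lysosomes and is a listed HuD target, varied most among the 10 most abundant members. It had 47.2, 43.6 and 107 FPKM in HuD KO, against 47.6, 79.0 and 76.4 FPKM in control. Both genotypes spanned low and high values, the log2 fold change was 0.11 with an interval of -0.87 to 1.08, and 11.0% of its windows are shared with a pseudogene. *Rab32*, of lysosome-related organelles, was low throughout, with 0.682, 0.639 and 0.710 FPKM in HuD KO, against 0.515, 0.554 and 0.538 FPKM in control. Its groups did not overlap over 6 libraries, but its log2 fold change was 0.14 (95% interval -0.09 to 0.37) over 5 and 0.13 (95% interval -0.08 to 0.34) over 6. *Rab9*, *Rab24*, *Rab9b*, *Rab29* and *Rab42* averaged 16.6, 15.8, 7.88, 2.17 and 1.46 FPKM in HuD KO and 16.0, 16.9, 9.38, 2.24 and 1.17 FPKM in control. *Rab9* returns receptors to the Golgi, *Rab24* acts in autophagy and *Rab29* works with the kinase LRRK2. *Rab9b* was 14.0 FPKM in control 3 and 6.58 and 7.57 FPKM in the other controls, and 3.53 FPKM in the excluded HuD KO 2.

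The last pair belongs to the primary cilium. *Rab28* had 11.5, 10.9 and 12.8 FPKM in HuD KO, against 8.60, 9.24 and 11.0 FPKM in control. HuD KO 1 and 3 were above every control and HuD KO 2 just below control 3. The log2 fold change was 0.31 ± 0.12 (SE; 95% interval 0.005 to 0.62; adjusted p = 0.995, limma) over 5 libraries and 0.27 (95% interval -0.03 to 0.56) over 6. *Rab23*, a brake on hedgehog signalling, had 1.45, 2.14 and 2.25 FPKM in HuD KO, against 2.48, 1.82 and 2.71 FPKM in control, with a log2 fold change of -0.23 (95% interval -0.68 to 0.22). HuD KO 1 was the lowest, and the value was -0.03 without it and -0.44 without HuD KO 3. Over 5 libraries the groups did not overlap for 6 members, of which 5 were higher in HuD KO (*Rab3d*, *Rab5c*, *Rab28*, *Rab32* and *Rab40b*) and *Rab36* was lower. Groups of all genes failed to overlap in 19.2%. Over 6 libraries only *Rab32* and *Rab40b* did so, beside 10.1% of all genes.

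The 9 members on the HuD target list gave 0 calls at an unadjusted p under 0.05 in either fit, beside 3.43% of all genes over 5 libraries and 3.48% over 6. Over 5 libraries 4 were higher and 5 lower, with a median log2 fold change of -0.013, against 0.005 for the 41 other members. Over 6 libraries 2 were higher and 7 lower, with a median of -0.12, against -0.03. Of the 700 genes of the whole target list tested under the listed symbols, 237 (33.9%) were higher and 463 lower over 6 libraries. Their median was -0.07, and 47.6% of all genes were higher. Over 5 libraries 299 (42.7%) were higher and 401 lower with a median of -0.02, beside 44.5% of all genes higher. These 700 genes include the Rab members on the list, except *Rab6a*, which is listed under its older symbol. The 2 sets share all their libraries, and replicate 2 is the library that separates the fits.

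Replicate 2 of the HuD KOs was outside the range of the 5 other libraries for 35 of 50 members, the highest for 12 and the lowest for 23, beside 63.9% of all genes. Of all genes it was the highest for 33.0% and the lowest for 31.0%. The median size of its deviation from the mean of the others was 0.31 on the log2 scale over the members, against 0.085 to 0.18 in the other 5 libraries. Over all genes it was 0.25, against 0.093 to 0.17. Control 3 was the highest library for 18 members and the lowest for 7, 25 of 50 members in all. It was at either end for 47.4% of all genes, the highest for 28.5% and the lowest for 19.0%.

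**Figure D4:**
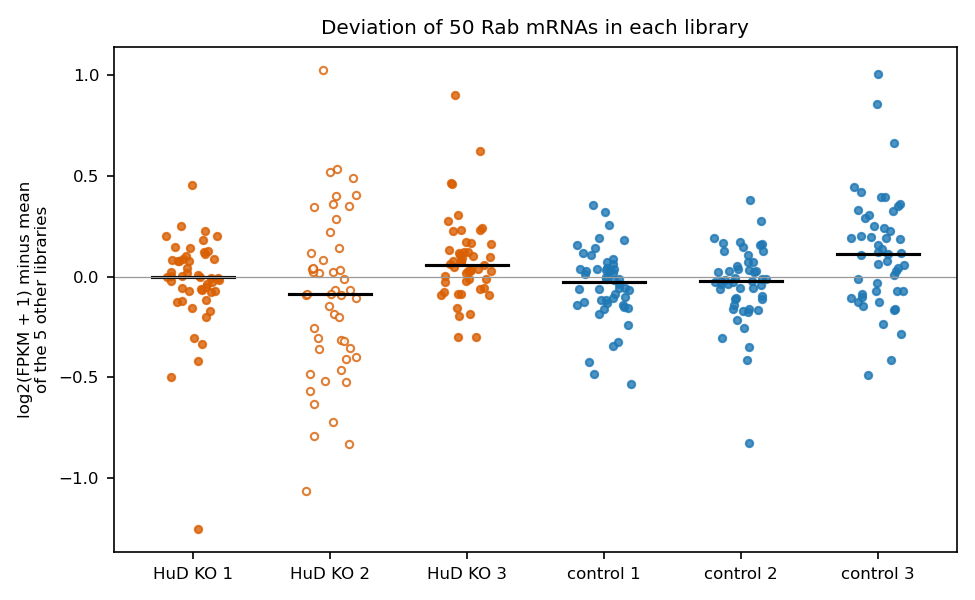
Deviation of each of the 50 Rab mRNAs in each library from its mean in the 5 other libraries, on the log2(FPKM + 1) scale, HuD KO left and control right, with a bar at the median. HuD KO 2 is spread most widely, and control 3 more than control 1 and control 2.

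Other genes encode the proteins that load, switch and read Rabs. Among 110 such genes 108 were tested, 56 higher and 52 lower in HuD KO, with a median log2 fold change of 0.0014 over 5 libraries, and 0 passed adjustment. Over 6 libraries 58 were higher and 50 lower, beside 47.6% of all genes higher (44.5% over 5). At an unadjusted p under 0.05, 2 of the 108 were called (1.85%), both higher, beside 3.43% of all genes (1.62% higher). *Tbc1d5*, a GTPase-activating protein for RAB7, had 3.12, 2.30 and 2.89 FPKM in HuD KO, against 1.95, 2.23 and 1.97 FPKM in control, and its groups did not overlap. Its log2 fold change was 0.39 ± 0.098 (SE; 95% interval 0.15 to 0.64; adjusted p = 0.995, limma) over 5 libraries and 0.30 over 6.

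*Rin1*, an exchange factor for RAB5, had 11.7, 3.78 and 10.7 FPKM in HuD KO, against 8.28, 9.00 and 10.1 FPKM in control. Replicate 2 lay far below all others, and the log2 fold change was 0.27 (95% interval 0.01 to 0.54) over 5 libraries and -0.18 over 6. *Rabep1*, which binds RAB5 and RAB4, had 13.5, 20.3 and 19.2 FPKM in HuD KO, against 20.2, 20.9 and 21.4 FPKM in control, a log2 fold change of -0.35 (95% interval -0.72 to 0.02). HuD KO 1 alone was well below the rest. *Chml*, an escort of newly made Rabs, had 2.76, 1.63 and 2.72 FPKM in HuD KO, against 2.61, 2.61 and 2.31 FPKM in control. *Ppm1h*, a phosphatase of LRRK2-modified Rabs, had 9.13, 8.42 and 9.40 FPKM in HuD KO, against 8.94, 8.54 and 6.97 FPKM in control. Both overlapped over 6 libraries, and their log2 fold changes were 0.09 (95% interval -0.14 to 0.33) and 0.17 (95% interval -0.12 to 0.47).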

How the data were processed

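The deposited table gives, for 6 neocortex libraries, the FPKM that the authors computed for each gene. The submitters' notes and the study's methods name FastQC 0.11.5 for read quality, cutadapt and Trimmomatic for trimming and STAR 2.7.3a for alignment, to mm10. The program behind the FPKM, and its use of strand, are not given in the sources used here. No counts are given, so depth is unknown and no counting error can be set beside a value. The authors' own fold changes and p-values (other deposited columns) and the line of sums were left out.

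HuD KO was compared with control in limma 3.58.1 (R 4.3.3; lmFit, and eBayes with a trend) on log2(FPKM + 1), for genes averaging 0.5 FPKM or more over the libraries used. P-values were adjusted over all genes by the Benjamini-Hochberg method at 0.05. The fit was tested on simulated data with independent errors of the same spread in every library of a gene. A library that deviates across many genes, as HuD KO 2 and control 3 do, was not simulated. Members, roles and lists were chosen with earlier results of these data known. Per-library values are given for the 12 members with the smallest p, the 10 most abundant and those on the HuD target list; of the machinery lists, the gene with the smallest p. *Rab4b* and single values of other members were added after they were seen. The labels do not tie replicate numbers across genotypes, so the libraries were not paired. Deviations of same-numbered libraries correlated at -0.12, 0.18 and 0.04, and those of differently numbered ones from -0.21 to 0.24. With so few libraries these values cannot decide whether a pairing exists. Sequences come from GENCODE M21 transcripts, whose 100-base windows served to find shared reads, and 45 of 50 members had the same coordinates there as in the table. The fit was repeated with all 6 libraries, with 0.1 FPKM added in place of 1, without the filter and with one at 2 FPKM, after median scaling or quantile normalization, without a variance trend, with a replicate block and without each library in turn. Figures used matplotlib 3.10.9.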

Additional observations from a re-analysis of the deposited data

How the results depend on the processing

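No Rab gene passed adjustment in any of the 14 alternatives, where the smallest adjusted p was 0.174 (*Rab3d*, without control 3). The count at an unadjusted p under 0.05, 3 over 5 libraries, was 1 over all 6 and 1 with the replicate block over 4 libraries, and ran from 0 to 5 when 1 library was left out. The count of all genes passing adjustment, 6, was 2 with a pseudocount of 0.1 FPKM and 3 with the replicate block over 6 or over 4 libraries, and ran from 2 to 11 when 1 library was left out. The count of Rab genes with a higher mean in HuD KO ran from 21 to 32 and the median log2 fold change from -0.02 to 0.05 in those settings. Of the 25 named Rab genes, 15 kept their sign in every alternative that tested them (*Rab32* was not tested with the filter at 2 FPKM). Over all 6 libraries, and with the replicate block over 6, *Rab18* was -0.0551, *Rab5a* was -0.0738, *Rab7* was -0.12, *Chml* was -0.077 and *Rin1* was -0.18. With the replicate block over 4 libraries *Rab3a* was 0.0212 and *Rab6a* 0.00628. Median scaling gave *Rab14* 0.00853 and quantile normalization gave *Rab1b* -0.00636. Leaving out 1 library gave ranges across 0 for *Rab14* (-0.0356 to 0.00214), *Rab18* (-0.00487 to 0.0361), *Rab1a* (-0.36 to 0.085), *Rab1b* (-0.000865 to 0.0492), *Rab2b* (-0.0384 to 0.32), *Rab3a* (-0.13 to 0.0696), *Rab3c* (-0.36 to 0.0259), *Rab5a* (-0.0122 to 0.0819), *Rab6a* (-0.0672 to 0.0148), and *Rab7* (-0.48 to 0.69). With the sign kept, *Rab30* ran from -0.28 to -0.0646, *Rab35* from 0.0635 to 0.21, *Rab36* from -0.24 to -0.11, *Rab11a* from -0.20 to -0.0985 and *Rabep1* from -0.59 to -0.12. The cause of these moves was not tested. Depth is unknown, and values under 1 FPKM, as of *Rab32* and *Rab39*, rest on an unknown number of reads.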

Other observations

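*Rab3b*, left out because it lies near *Elavl4* (chr4:108879063-108943324, mm10), encodes a vesicle Rab close to *Rab3a*. It had 9.03, 9.68 and 9.78 FPKM in HuD KO replicates 1, 2 and 3, against 13.7, 13.9 and 18.1 FPKM in the controls. No HuD KO library reached the lowest control, and the log2 fold change was -0.63 (95% interval -0.98 to -0.29; adjusted p = 0.995, limma) over 5 libraries and -0.62 (adjusted p = 0.871) over 6. In this design the targeted region and the loss of HuD cannot be told apart for this gene.

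The Rab-like gene *Rabl3* had 1.31, 1.03 and 1.28 FPKM in HuD KO, against 1.74, 1.62 and 1.53 FPKM in control, without overlap (log2 fold change -0.20, 95% interval -0.43 to 0.04, over 5 libraries and -0.25 over 6). *Rabl2* had 4.82, 4.92 and 5.19 FPKM in HuD KO, against 8.70, 4.71 and 5.79 FPKM in control, and *Rabl6* 18.1, 23.2 and 18.9 FPKM, against 18.9, 18.5 and 17.3 FPKM, both with overlap. The 16 Arl genes, another family of small GTPases, had a median log2 fold change of -0.033 over 5 libraries, with 1 call at an adjusted p under 0.05 (*Arl5b*, named after its value was seen), beside 0.0457% of all genes. Over 6 libraries there was no adjusted call and 1 at an unadjusted p under 0.05 (limma).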
